A study of Arabidopsis thaliana with 25 samples.

Results

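Alpha-tubulin pairs with beta-tubulin in the dimer from which microtubules are built. In plant cells, microtubules under the plasma membrane steer the enzymes that lay down cellulose, and so the direction in which a cell grows. Arabidopsis thaliana has 6 genes for alpha-tubulin, TUA1 to TUA6. TUA1 is the pollen gene of the family and the others are vegetative genes, expressed in growing tissues. TUA2 and TUA4 are known to encode the same protein, as are TUA3 and TUA5, and point mutations in TUA4 or TUA6 make organs twist as they grow.

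The 6 genes were taken by locus identifier, out of 27444 protein-coding nuclear genes. No score decided which genes of the family were taken, but the family was chosen with earlier results of these data known. They are TUA1 (AT1G64740), TUA2 (AT1G50010) and TUA4 (AT1G04820) on chromosome 1, TUA6 (AT4G14960) on chromosome 4, and the neighbours TUA3 (AT5G19770) and TUA5 (AT5G19780) on chromosome 5. Their lengths are close, between 2079 bp for TUA6 and 2482 bp for TUA1.

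The measurements were chromatin immunoprecipitation with sequencing (ChIP-seq) of Col-0 seedlings. Each of 4 transcript elongation factors had 4 libraries, each of 2 phosphorylated forms of RNA polymerase II (RNAPII) had 2 libraries, and there were 5 input libraries without antibody. All samples were of this wild type, kept at 21 °C during 16 h of daily light and at 18 °C at night. A heat step of 44 °C for 10 min stands in the protocol of every sample, but no label calls a sample heated, and all samples of a group were taken as alike. The labels do not say whether libraries of a group are separate cultures.

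The factors travel with transcribing polymerase. SPT5 binds RNAPII directly, ELF7 belongs to the PAF1 complex, and FACT, made of SSRP1 and SPT16, is a chaperone that takes histones off and puts them back as the polymerase passes. Phosphorylation of the polymerase tail at serine 5 (S5P) is typical of early transcription, and at serine 2 (S2P) of elongation through the gene body.

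The data are 8 lists of peak summits, 1 for each factor over each RNAPII form, with 30216 summits in all. A summit is the single base where a called peak is strongest, and its score, given by the authors, is −log10 of the q-value of the call. The lowest score in the lists was 2.0, so that a q-value of 0.01 was the limit. Peak names say that a factor was called "over" a form, which is read here as factor libraries set against RNAPII libraries. On that reading a summit marks a place where the factor stood out beyond RNAPII, not the factor's occupancy as such, and a gene with no summit may still carry the factor. The lists have no values per library, so no value below has a replicate error, sequencing depth is unknown, and no test was made. Scores are ranked only within a list. Each count of alpha-tubulin genes stands beside the share of all protein-coding genes that met the same rule, at least 1 summit inside the gene or within 500 bp of it.

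Apart from 1 site at its end, TUA1 had no summit of any list, whereas the vegetative genes carried summits of FACT and ELF7 along their bodies. Of the 8 lists, TUA1 was in 2, TUA2 in 5, TUA4 and TUA5 in 6 each, and TUA3 and TUA6 in 7 each. Among all protein-coding genes 36.8% were in at least 1 list, 26.3% in at least 2, 7.63% in at least 5, 3.05% in at least 6 and 0.772% in at least 7. The 6 genes together had 41 summits, 2 at TUA1 and 39 at the vegetative genes, and 39 of the 41 lay inside the gene. All 5 vegetative genes were in the ELF7 list over S2P and in all 4 FACT lists, and TUA1 was not. These are the lists that held all 5 vegetative genes, so the genes share this combination by construction. It was found in 5.78% of protein-coding genes, a share given as a description only.

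**Figure D1:**
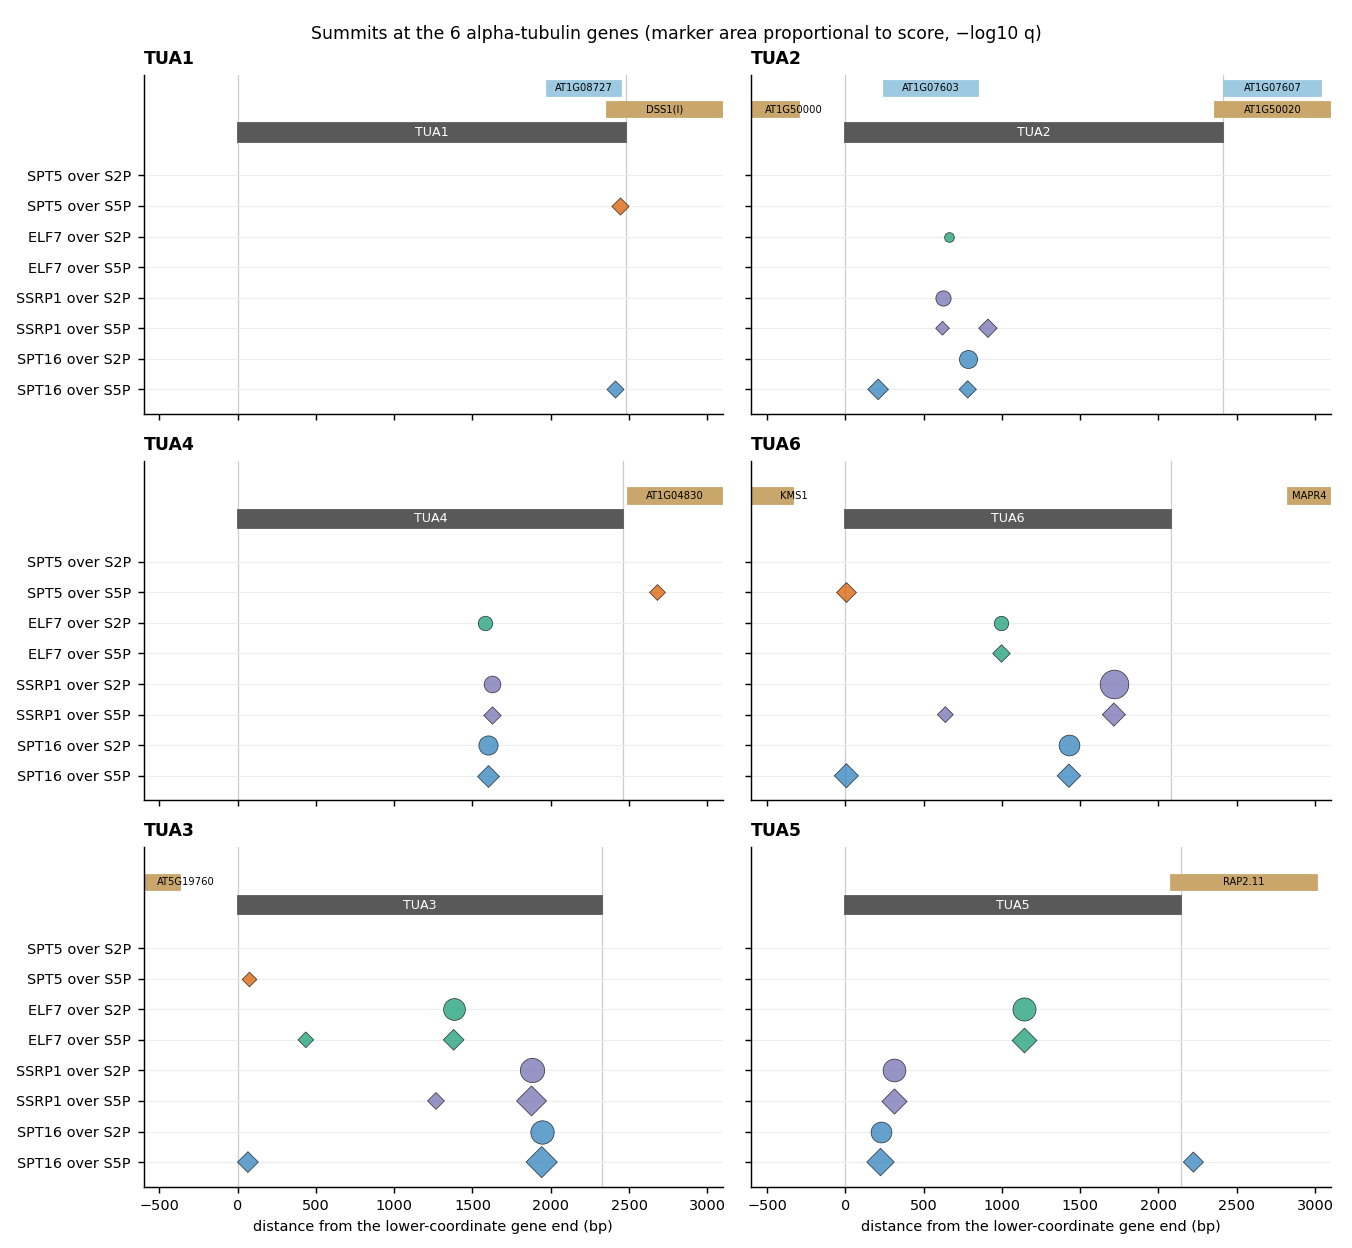
Summits at each alpha-tubulin gene, plotted by distance in bp from the gene end with the lower coordinate (horizontal axis) for each of the 8 lists (rows). Circles are lists over S2P and diamonds lists over S5P, marker area is proportional to the score (−log10 q), the dark bar is the gene, brown bars are protein-coding neighbours and blue bars noncoding ones. TUA1 has 2 summits, both where it overlaps DSS1(I), and the vegetative genes have 6 to 10 each.

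TUA1 had its only summits at its far end, in sequence shared with the next gene. The SPT5 summit over S5P scored 3.78 and lay on chromosome 1 at position 24052447 (TAIR10), 40 bp inside the higher-coordinate end of TUA1. The SPT16 summit over S5P scored 3.74 at position 24052417, 70 bp inside the same end and 30 bp from the SPT5 summit. Both sites were low within their lists: 31.2% of the 4292 genes with an SPT5 summit over S5P and 24.9% of the 6642 genes with an SPT16 summit over S5P had a strongest score at or below them.

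At this end TUA1 overlaps the protein-coding gene DSS1(I) by 126 bp, and the noncoding gene AT1G08727 lies there too. Both TUA1 summits fell in all 3 genes, 85 bp and 55 bp inside the lower-coordinate end of DSS1(I). They cannot be assigned to any of the 3 genes from their position. DSS1(I) had a further SPT16 summit over S2P in its own body, 1207 bp beyond TUA1, with a score of 3.17. In the rest of TUA1 no list had a summit. With scores of at least 5 TUA1 was in 0 lists, as were 63.2% of all protein-coding genes even with no score limit. The pattern of TUA1, SPT5 and SPT16 over S5P and nothing else, was that of 1072 genes, 3.91% of all.

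TUA1 was in 1 of the 4 FACT lists, through the shared site just described. FACT marked every vegetative alpha-tubulin gene over both RNAPII forms, in 20 of 20 combinations of gene and list. Among all protein-coding genes 11.1% were in all 4 FACT lists. Lists of 1 factor share its libraries, so these combinations are not separate observations. SSRP1 over S2P had summits at 5 of the 6 genes, against 19.1% of all protein-coding genes, and SSRP1 over S5P at 5, against 14.4%. SPT16 over S2P had summits at 5 of the 6, against 21.0% of all genes, and SPT16 over S5P at all 6, against 24.2%. The shares were little higher in the 3363 genes of the same length range: 21.8% and 16.9% for SSRP1 over S2P and S5P, 24.0% and 27.3% for SPT16, 10.8% and 2.71% for ELF7, and 1.34% and 16.6% for SPT5.

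Among the vegetative genes, TUA3, TUA5 and TUA6 had the higher FACT scores and TUA2 and TUA4 the lower ones, in each of the 4 FACT lists. In SSRP1 over S2P the strongest summit scored 20.9 at TUA6, 15.1 at TUA3, 13.2 at TUA5, 7.14 at TUA4 and 5.95 at TUA2. The score at TUA6 was at or above that of 94.3% of the 5236 genes in this list, while TUA4 and TUA2 were below the median gene, which scored 7.18.

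In SSRP1 over S5P the scores were 11.5 at TUA3, 8.13 at TUA5, 6.88 at TUA6, 4.37 at TUA2 and 3.87 at TUA4. TUA3 was here at or above 93.0% of 3963 genes, and TUA2 and TUA4 were again under the median gene (5.21).

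SPT16 over S2P scored 14.0 at TUA3, 11.1 at TUA5, 11.0 at TUA6, 9.47 at TUA4 and 8.37 at TUA2. All 5 were above the median gene of that list, at 6.64. SPT16 over S5P scored 3.74 at TUA1, against 12.6 at TUA3, 9.72 at TUA5, 7.50 at TUA6, 6.18 at TUA4 and 5.48 at TUA2. TUA1 was below the median gene (5.24) and the 5 vegetative genes above it. With no replicate values, it cannot be said which neighbours in these orders differ beyond error, and scores as close as 11.1 and 11.0 are not distinguished here.

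TUA1 had no ELF7 summit over either form. ELF7 marked the 5 vegetative genes over S2P, against 8.54% of all protein-coding genes, and 3 of them over S5P, against 2.08%. Over S2P the tandem neighbours stood apart, with 13.6 at TUA5 and 12.2 at TUA3, and 5.37 at TUA4, 5.30 at TUA6 and 2.43 at TUA2. TUA5 and TUA3 ranked 87th and 127th among 2344 genes with an ELF7 summit over S2P, whereas TUA2 was near the bottom at rank 2141. Over S5P the score was 7.92 at TUA5, 5.52 at TUA3 and 3.97 at TUA6, and TUA2 and TUA4 had no summit. TUA2 and TUA4 were thus absent or the lowest of the vegetative genes in ELF7 over S5P and in every FACT list, though TUA4 was just above TUA6 in ELF7 over S2P.

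**Figure D2:**
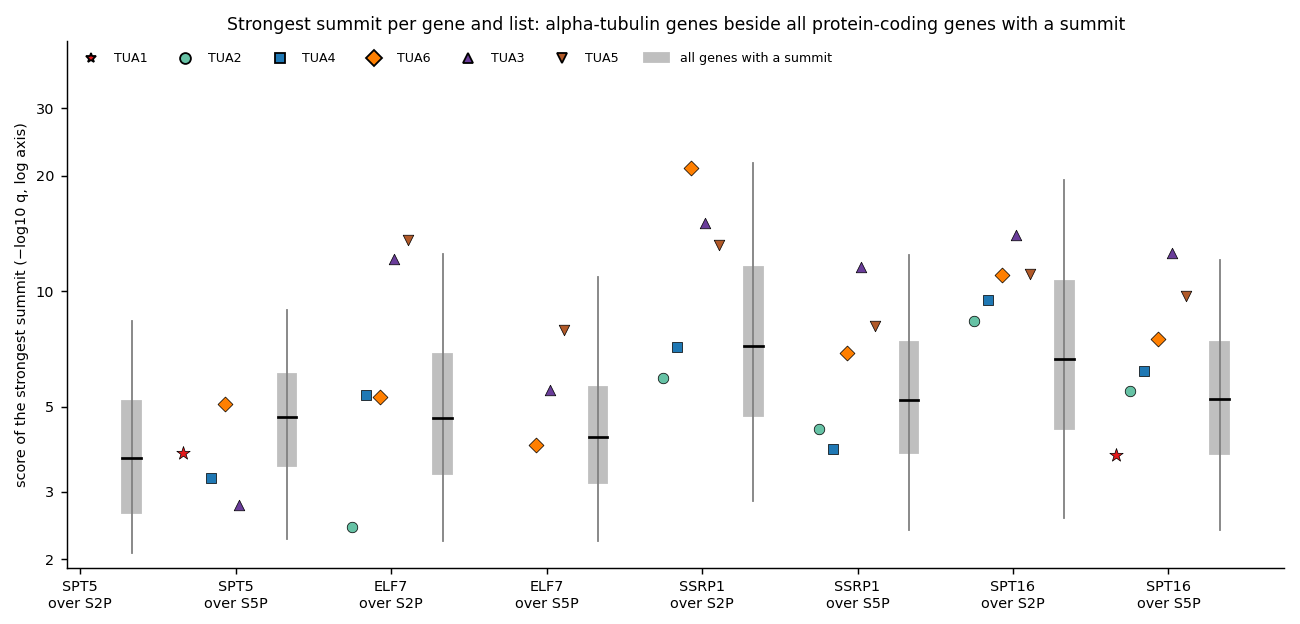
Score of the strongest summit (−log10 q, logarithmic axis) of each alpha-tubulin gene in each list (coloured symbols), with all protein-coding genes that have a summit in that list in grey (box, quartiles; black line, median; thin line, 5th to 95th percentile). TUA1 (red star) appears in 2 lists below the median, and TUA3, TUA5 and TUA6 lie above the median in every FACT list.

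SPT5 was found at fewer of the genes. Over S5P it had summits at 4 of the 6, TUA1 and 3 vegetative genes, against 15.6% of all protein-coding genes, and over S2P at 0 of the 6, against 1.05%. Over S5P the scores were 3.78 at TUA1, and 5.08 at TUA6, 3.25 at TUA4 and 2.77 at TUA3, so that TUA1 lay within the range of the vegetative genes. TUA6 was the only one above the median gene of the list, at 4.69. The SPT5 list over S2P holds only 298 summits, and 0 of 6 genes is close to its share of all genes.

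The places of the summits differed by factor in the way the map shows. SPT5 over S5P lay at gene ends: 40 bp inside TUA1, and 4 bp inside TUA6 and 71 bp inside TUA3. The median gene of the same length range with its strongest SPT5 summit inside had it 71 bp from an end. In 59.7% of the 559 genes of this range with an SPT5 summit over S5P, the strongest one lay outside the gene. The summit counted for TUA4 was 216 bp outside it and 189 bp inside the neighbour AT1G04830, whose only summit this is.

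SPT16 over S5P had a site beside SPT5 at each of the 3 genes whose SPT5 summit lay within them. The closest SPT5 and SPT16 summits over S5P were 30 bp apart at TUA1, 3 bp at TUA6 and 5 bp at TUA3. Over all 344 genes of this length range with both, the median gap of the closest pair was 29.5 bp. If peak names are read as above, these lists share their RNAPII libraries. The sites at the ends of TUA6 were also within the window of KMS1, 335 and 338 bp outside that gene, and those of TUA3 within that of AT5G19760, 437 and 432 bp outside it. At TUA4, where the SPT5 summit lies in the next gene, the gap was 1080 bp.

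SPT16 over S5P had 1 site at TUA1, and among the vegetative genes 1 at TUA4 and 2 at each of the others. At TUA6 they scored 7.50 at 7 bp from the lower-coordinate end and 7.10 at 650 bp from the other end. At TUA3 the site near the lower-coordinate end, 66 bp inside, scored 5.58, and that in the body, 382 bp from the other end, scored 12.6. At TUA2 the site 210 bp inside the gene scored 5.48 and that at 782 bp scored 3.86. At TUA5 the second site, scoring 5.22, was 82 bp outside the gene and 145 bp inside RAP2.11, a transcription factor gene of the ERF family that overlaps TUA5 by 64 bp. Among all protein-coding genes 6.66% had 2 or more SPT16 summits over S5P under this rule, which is 1829 of the 6642 genes with a summit in this list.

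Second sites over S5P were also found for SSRP1 and ELF7, but not for SPT5. SSRP1 over S5P had 2 summits at TUA2, TUA6 and TUA3, with the weaker ones scoring 2.43, 3.22 and 3.65. Among all protein-coding genes 2.28% had 2 or more, which is 625 of the 3963 genes with a summit in this list. At TUA2 the weaker summit was the one at the base of the S2P summit, 621 bp from the gene end, and the stronger one lay 911 bp from that end. ELF7 over S5P had a second summit at TUA3, scoring 3.18 at 436 bp from the lower-coordinate end. The share of all genes with a second ELF7 summit over S5P was not analysed here, so nothing is read from it.

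SPT16 had a summit at the same base over S2P and over S5P at all 5 vegetative genes, at positions 18518368 in TUA2 and 1357683 in TUA4 on chromosome 1, 8549845 in TUA6 on chromosome 4, and 6684362 in TUA3 and 6687255 in TUA5 on chromosome 5. The closest SSRP1 summits over the 2 forms were within 1 bp of each other at all 5, and ELF7 summits at the same base at all 3 genes with both. Lists of 1 factor share the factor's libraries, and in genes of the same length range 78.1% of genes with both SPT16 lists, 81.7% with both SSRP1 lists and 70.0% with both ELF7 lists also had summits within 1 bp.

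Over S2P the FACT subunits lay at most 286 bp apart in the gene body. The strongest SSRP1 and SPT16 summits were 24 bp apart at TUA4, 65 bp at TUA3, 83 bp at TUA5, 161 bp at TUA2 and 286 bp at TUA6. The median over 671 genes of the same length range was 96 bp, so that TUA6 and TUA2 had the wider gaps. SSRP1 at TUA6 was nearer to the gene end, at 364 bp against 650 bp for SPT16. Over S5P the gap between the strongest SSRP1 and SPT16 summits was 24 bp at TUA4, 65 bp at TUA3 and 84 bp at TUA5, but 701 bp at TUA2 and 1708 bp at TUA6, against a median of 74 bp in 503 genes. At TUA2 and TUA6 the strongest SPT16 summit over S5P was the one nearer the gene end, and the closest pair of summits was 129 and 287 bp apart.

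ELF7 over S2P lay nearer to the gene centre than the strongest FACT summits at TUA3, TUA4, TUA5 and TUA6, but not at TUA2, where SPT16 over S2P (782 bp from the nearest end) and SSRP1 over S5P (911 bp) lay deeper. At TUA3 a weaker SSRP1 summit over S5P, 1057 bp from the nearest end, was also deeper than ELF7. The strongest ELF7 summits over S2P were 999 bp from the nearest end at TUA5, 995 bp at TUA6, 944 bp at TUA3, 880 bp at TUA4 and 664 bp at TUA2, and the median gene of this length range had 877 bp. The medians for FACT in that range were smaller, 506 and 443.5 bp for SSRP1 over S2P and S5P and 566 and 412 bp for SPT16. At TUA4 the FACT summits lay 840 to 864 bp from the nearest end, close to ELF7. Over S2P, the distance of FACT from ELF7 differed between the genes. At TUA2 and TUA4 the SSRP1 summit was 43 and 40 bp from the ELF7 summit, and the SPT16 summit 118 and 16 bp. There the summits of the 3 factors over S2P lay close together. At TUA2 this rests on an ELF7 summit of 2.43, near the limit of 2.0. All 3 summits of TUA2 over S2P also lie in a noncoding gene inside it. Over S5P the strongest SSRP1 and SPT16 summits at TUA2 were 247 and 454 bp from that ELF7 summit, and the weaker ones lay at the S2P bases. At TUA4 the FACT summits over S5P lay at the S2P bases. At TUA3, TUA6 and TUA5 the SSRP1 summit over S2P was 497, 719 and 834 bp from the ELF7 summit. The SPT16 summit over S2P was 562, 433 and 917 bp from the ELF7 summit. The median distance of SSRP1 from ELF7 over S2P was 324 bp in 349 genes of the length range. For SPT16 it was 262 bp in 354 genes.

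**Figure D3:**
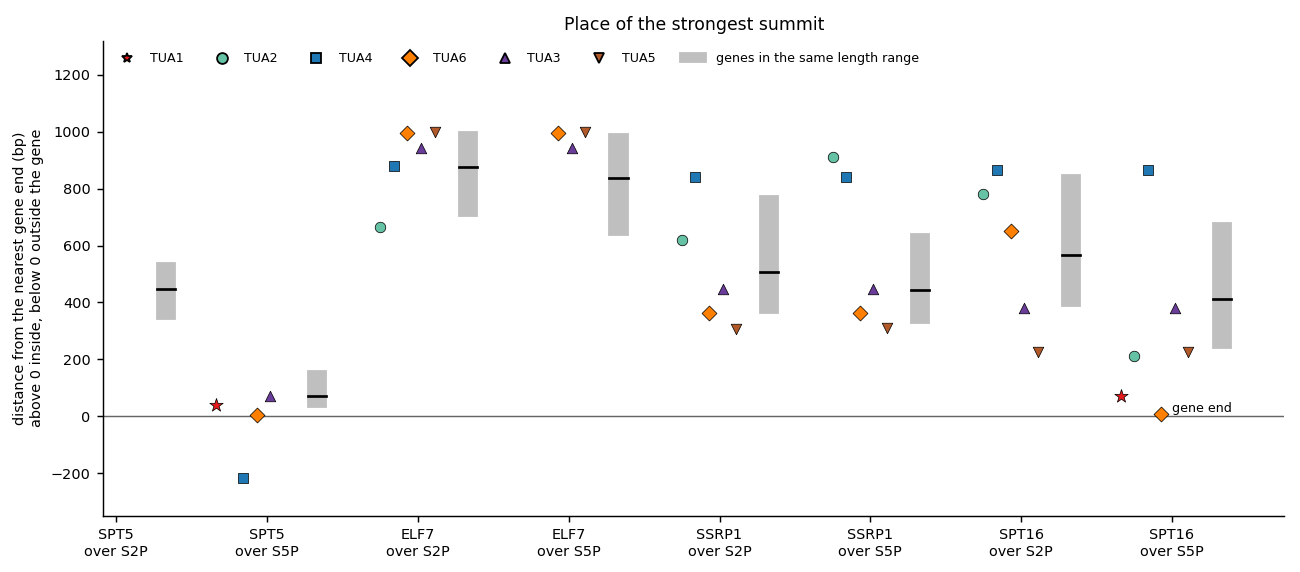
Distance in bp from the strongest summit to the nearest gene end, above 0 inside and below 0 outside the gene, for each alpha-tubulin gene and list, with the quartiles and median (grey box, black line) of protein-coding genes of the same length range whose strongest summit is inside. ELF7 summits lie 664 to 999 bp from an end and SPT5 summits over S5P at 71 bp or less inside, except that of TUA4 at 216 bp outside.

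TUA3 and TUA5, which follow each other on chromosome 5 with 2285 bp between them, had their FACT summits on the sides that face each other. In TUA3 the SSRP1 and SPT16 summits over S2P were 447 and 382 bp from the higher-coordinate end, and in TUA5 they were 308 and 225 bp from the lower-coordinate end. No list had a summit in the stretch between the genes. The sites of SPT16 over S5P near the outer ends, 66 bp inside TUA3 and 82 bp outside TUA5, were on the sides that face away. The gene table used here gives no strand, so which end is the start of transcription was not analysed here. In TUA6 the strongest SSRP1 summits over both forms and the SPT16 body site lay on the higher-coordinate side, 364, 363 and 650 bp from that end. The SPT5 and SPT16 sites over S5P at the gene end, and a weaker SSRP1 summit over S5P at 639 bp, lay on the lower-coordinate side. In TUA2 all sites lay in the lower-coordinate part of the gene.

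A noncoding gene, AT1G07603, lies inside TUA2. It covered the SSRP1, SPT16 and ELF7 summits of TUA2 over S2P but not the strongest ones of SSRP1 and SPT16 over S5P. Signals of the 2 overlapping genes cannot be told apart. The coding parts of TUA2 and TUA4, and of TUA3 and TUA5, may be alike enough for reads to fit both, and the labels do not say how such reads were handled. The part of such reads in the summits was not tested.

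The window of 500 bp mattered little for these genes. The 2 summits counted from outside a gene were those at 82 bp from TUA5 and 216 bp from TUA4. The nearest ones left out were SPT16 summits 740 bp (S2P, score 3.90) and 757 bp (S5P, score 2.38) below TUA3, inside the neighbour AT5G19760, and the one 1207 bp beyond TUA1.

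By the pattern over all 8 lists, TUA3 and TUA5 were close to each other and TUA1 was far from both. Each gene was described by the percentile of its strongest score within each list, with 0 where it had no summit, and likeness is the Euclidean distance of these 8 values in percentile points. TUA3 and TUA5 were 24.0 apart, the smallest distance within the family, and TUA2 and TUA4 were 62.3 apart. TUA1 was between 101 and 209 from the others. Since absence counts as 0, the distances of TUA1 mostly restate that it was in few lists and are no separate result. Presence or absence was the same in all 8 lists for TUA3 and TUA6, and in 2 of 8 for TUA1 and TUA5.

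Other genes came closer still. The nearest to TUA3 was XYL1 (15.4), an alpha-xylosidase gene, followed by ERD4 (17.5) and GSTU13 (17.5), a glutathione transferase gene. For TUA5 they were AT1G25230 (12.6), AT1G28400 (14.5) and CIPK21 (15.8), a protein kinase gene. For TUA6 they were RAN2 (25.9), a small GTPase gene, NRT1.7 (33.1), a nitrate transporter gene, and ACA11 (33.4), a calcium pump gene. TUA4 was nearest to AT1G07930 (22.1), AT5G62570 (25.5) and SD2-5 (27.5), and TUA2 to BOU (10.1), a mitochondrial carrier gene, AT1G59970 (12.3) and SMZ (13.3), a flowering repressor gene. TUA1 was nearest to EMB2769 (3.23), AT5G49920 (3.99) and BIG (4.19), with low scores in few lists.

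Most genes for beta-tubulin, the partner in the dimer, also carried FACT summits. Of 9 beta-tubulin genes, 8 had summits of SSRP1 over S2P, of SPT16 over S2P and of SPT16 over S5P, 7 of SSRP1 over S5P, 6 of ELF7 over S2P, 4 of SPT5 over S5P, 2 of ELF7 over S5P and 0 of SPT5 over S2P. In the same order, the shares of all protein-coding genes were 19.1%, 21.0%, 24.2%, 14.4%, 8.54%, 15.6%, 2.08% and 1.05%. TUB2 and TUB3 had the same SPT5 score over S5P, 3.92, and whether 1 summit was counted for both was not analysed here. The median was 6 lists per alpha-tubulin gene and 5 per beta-tubulin gene, against 0 over all protein-coding genes. TUB5 was in 7 lists, with 19.0 for SSRP1 over S2P. TUB7 and TUB2 were in 6 lists each, and TUB1 was in none.

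The counts in the other groups of the microtubule system are small and are to be read against the 63.2% of all protein-coding genes that were in no list. Both gamma-tubulin genes, TUBG1 and AT5G05620, which nucleate microtubules, were in none. Of 6 genes for tubulin folding cofactors and their small GTPase, KIS, for cofactor A, was in 1 list (SPT16 over S5P, score 2.73) and 5 were in none. Of 16 genes for microtubule-associated and array-organising proteins 12 were in none. The other 4 of the 16 (against 36.8% of all genes in at least 1 list) include MAP65-1, SPR1 and CLASP. MAP65-1, which bundles microtubules, was in 6 lists with up to 8.66 for SPT16 over S5P, SPR1, which acts at microtubule plus ends, was in 4, and CLASP, a plus-end protein, was in 2 with 10.5 for SPT5 over S5P.

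Other genes known for their expression in pollen had summits at a share near that of all genes. Of 15 marker genes of pollen 11 were in no list, against 63.2% of all protein-coding genes, and nothing is read from a share so near the background. The 4 with a summit were TUB9 in 5 lists, with up to 8.81 for SPT16 over S5P, the actin gene ACT12 and the pectin methylesterase gene PPME1 in 2 each, and the calcium pump gene ACA9 in 1. TUB9, the beta-tubulin gene taken here as a pollen gene, thus had summits of both FACT subunits over both forms and of ELF7 over S2P (3.66), all of which were absent from TUA1 but for the shared SPT16 site. RNA levels were not analysed here, so the lists do not show which of these genes were transcribed in the seedlings.

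**Figure D4:**
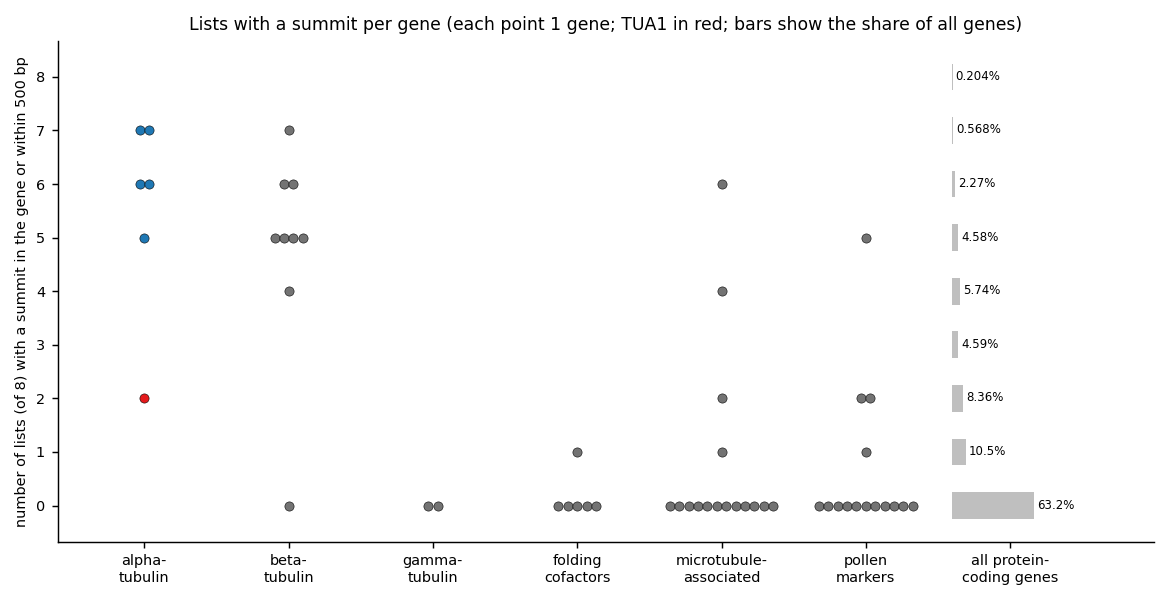
Number of lists, out of 8, with a summit in the gene or within 500 bp (vertical axis), for each gene of the named groups (points) and, at the right, the share of all protein-coding genes with each number (bars, in percent). TUA1 (red) is in 2 lists and the other alpha-tubulin genes (blue) in 5 to 7, while 63.2% of all genes are in 0.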

How the data were processed

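The deposited files used were 8 lists of peak summits with the authors' score per summit, −log10 of the MACS3 q-value. The submitters' processing notes name MACS3, deepTools, Bowtie2, Trimmomatic 0.39 and SAMtools 1.16.1, with the TAIR10 build. Neither labels nor files state the MACS3 settings, its control or how libraries were pooled. Each list holds 1 summit per peak.

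Summits were assigned in Python 3.11.15 with pandas 2.3.3 to protein-coding genes of an NCBI RefSeq table of assembly TAIR10.1, which gives no strand or exons and from which no coordinate is printed; all identifiers matched. A summit counted for every gene it lay in or within 500 bp of, and positions are counted from 1. As a check of the register, 69.9% of SPT5 summits over S5P lay within 100 bp of a gene end, against 7.06% and 6.55% after shifts of 500 bp down and up. The assignment was tested on simulated summits. Comparisons of place used the 3363 genes whose length lies in the range of the 6 genes.

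The design allowed no test, since the lists have no values per library, genes are not replicates, and depth is unknown. Positions oriented from the 5′ end had been planned and were replaced by distances to gene ends. The genes and comparison groups were chosen with earlier results of these data known. All 6 genes are named, with the 3 nearest genes to each by likeness, up to 3 marked genes of each comparison group, every marked pollen gene, and coding neighbours that share a summit. Genes without a summit and the noncoding neighbours were named after their values were seen. Sequences were not used here.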

Additional observations from a re-analysis of the deposited data

How the results depend on the processing

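No paired analysis was possible because the summit lists have no values per library, and for the same reason no library could be left out. The counts of genes per list, lists per gene and all 33 of 48 combinations of gene and list stayed within 1.5 times their values with windows of 0, 250 and 1000 bp and with summits given to the nearest gene only. The one share of all genes that moved more was that of SPT5 over S5P, at 6.13% with summits inside genes only. With scores of at least 5, TUA1 was in 0 lists and TUA2 in 3, and SPT5 over S5P had 1 of the 6 genes and SSRP1 over S5P 3. The shares of all genes were then 0.266% for SPT5 over S2P, 6.94% for SPT5 over S5P, 3.85% for ELF7 over S2P, 0.729% for ELF7 over S5P, 7.71% for SSRP1 over S5P and 12.9% for SPT16 over S5P. With scores of at least 10, 10 combinations remained: 0 lists at TUA1, TUA2 and TUA4, 2 at TUA6, 5 at TUA3 and 3 at TUA5. By list these were 0 genes for SPT5 over S5P, 2 for ELF7 over S2P, 0 for ELF7 over S5P, 3 for SSRP1 over S2P, 1 for SSRP1 over S5P, 3 for SPT16 over S2P and 1 for SPT16 over S5P. The shares of all genes were 0.0328% for SPT5 over S2P, 0.488% for SPT5 over S5P, 0.907% for ELF7 over S2P, 0.124% for ELF7 over S5P, 6.15% for SSRP1 over S2P, 1.59% for SSRP1 over S5P, 5.95% for SPT16 over S2P and 2.39% for SPT16 over S5P. A higher score limit leaves fewer summits by construction. With summits inside genes only, the strongest scores were the same in all 32 combinations that kept a summit. SPT5 over S5P at TUA4 kept none, since its only summit lies outside the gene. Distances to a gene end changed in 4 of 33 cases with the summit nearest to an end, and gaps between lists in 20 of 83 with the closest pair. With likeness ranked by presence first, the 3 genes nearest to TUA6 and TUA5 were the same, and of the 3 nearest by distance 2 remained for TUA1, 1 for TUA4 and 0 for TUA2 and TUA3.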
